A study of Mus musculus with 5 samples.

Results

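A set of 10 genes that mark long-lived tissue macrophages was read in sorted macrophages of mice with and without MyD88, the adaptor that most Toll-like receptors and the receptors of the IL-1 family use to signal. The genes were Folr2, Lyve1, Cd163, Mrc1, Stab1, Timd4, Cbr2, Siglec1, Adgre1 and Vsig4. They were chosen by symbol, and all 10 were found among the 19505 genes of the deposited array table, each with 1 probe set. All mice were C57BL/6, female or male, 6 to 12 weeks old, and were engrafted under the skin with B16-F10, a mouse melanoma line. At day 15 cells were sorted as CD45+, CD11b+ and F4/80+ and as CD3-, B220- and NK1.1-. RNA of 3 MyD88-ko samples and 2 wild-type (WT) samples was hybridised to single-colour whole-transcript arrays. The labels call the cells tumour-associated macrophages (TAMs), whereas according to the growth protocol they were sorted from spleen cells. They give no further detail of the MyD88-null allele and do not say whether each array was a separate mouse, so the tests rest on the spread among these 5 arrays, part of which may be technical. The series was made to compare the transcript profiles of these cells between the genotypes.

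Many tissues hold macrophages that were seeded early and maintain themselves, beside macrophages that arise from blood monocytes. Resident cells are rich in receptors that take up dying cells, sugars, lipoproteins and haemoglobin. FOLR2, LYVE1 and TIMD4 are much used to tell such cells from recent monocyte descendants, and in tumours FOLR2 and LYVE1 often mark macrophages that lie along vessels. PU.1, the product of Spi1, is the transcription factor on which macrophage development depends.

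RefSeq promoters (build GRCm38.p6) were at hand for 7 of the 10 genes, with 2 start sites for Folr2. The 250 bases before the start are shown for Mrc1 and Cbr2, which had signal above background on every array, and for Vsig4 and Timd4, which had it on none. They read 5′ to 3′ on the gene's strand, and capitals mark the PU.1 core GAGGAA on either strand. The windows lie at chr2:14229164-14229413 (+ strand) for Mrc1, chr11:120732022-120732271 (- strand) for Cbr2, chrX:96293439-96293688 (- strand) for Vsig4 and chr11:46810549-46810798 (+ strand) for Timd4.
Mrc1: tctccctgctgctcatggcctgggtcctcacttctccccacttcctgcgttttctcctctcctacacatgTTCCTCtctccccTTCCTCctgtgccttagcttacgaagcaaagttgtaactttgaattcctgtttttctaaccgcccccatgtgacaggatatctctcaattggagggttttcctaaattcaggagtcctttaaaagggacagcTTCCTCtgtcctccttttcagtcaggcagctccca
Cbr2: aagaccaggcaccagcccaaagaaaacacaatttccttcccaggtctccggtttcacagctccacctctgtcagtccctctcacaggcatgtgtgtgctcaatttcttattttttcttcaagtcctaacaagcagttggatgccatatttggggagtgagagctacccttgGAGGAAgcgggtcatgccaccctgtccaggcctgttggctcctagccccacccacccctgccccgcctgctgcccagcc
Vsig4: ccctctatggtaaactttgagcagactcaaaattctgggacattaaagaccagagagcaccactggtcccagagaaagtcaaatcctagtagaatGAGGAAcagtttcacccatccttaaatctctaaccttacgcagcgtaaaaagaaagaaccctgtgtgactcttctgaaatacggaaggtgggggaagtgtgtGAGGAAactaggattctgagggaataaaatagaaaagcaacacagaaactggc
Timd4: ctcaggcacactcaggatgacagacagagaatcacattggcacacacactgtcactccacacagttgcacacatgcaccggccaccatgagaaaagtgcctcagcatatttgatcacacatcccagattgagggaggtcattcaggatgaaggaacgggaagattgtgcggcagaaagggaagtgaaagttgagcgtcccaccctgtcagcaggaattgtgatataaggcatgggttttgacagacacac
Mrc1 held 3 PU.1 cores, Vsig4 2, Cbr2 and Stab1 1 each, and Timd4, Cd163 and both Folr2 windows 0. The core was thus in 4 of 8 windows, against 23.3% of 32851 promoters of that length. A MAF core, TGCTGA, was in 4 of the 8 windows (16.1% of all promoters), also searched on either strand. No match overlapped one of another motif in these 8 windows. These letter matches are descriptions of the windows and were not tested for binding. Presence of the core did not divide the genes by signal, since Vsig4 held it and Folr2 did not.

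The arrays correlated at Pearson r between 0.969 and 0.992 across genes, which are not independent replicates, and none was a copy of another. The values carried no detection calls, so a percentile (the 95th) of the 5222 negative-control probe sets of each array served as a background limit. It was 6.55, 6.59 and 6.74 (log2) on the MyD88-ko arrays and 6.91 and 6.96 on the WT arrays. Myd88 itself had log2 signals of 7.73, 7.01 and 7.58 in MyD88-ko and 8.46 and 8.40 in WT, a difference of -0.99 (SE 0.22) that did not pass over all genes (limma, adjusted p = 0.179). The labels do not tell which part of the gene was deleted, so its probes may lie outside it. Myeloid genes were high, with Csf1r at 10.34 to 10.64 over the 5 arrays, Lyz2 at 11.50 to 11.65 and Itgam at 9.94 to 10.89. Itgam encodes CD11b, an antigen of the sort, and these genes alone do not tell macrophages from other CD11b+ myeloid cells. Cx3cr1 was under the limit on every array (6.22 to 6.60). The 8 of 8 measured T, B and NK cell markers also lay under the limit on every array. Of 7 melanoma markers, 5 were above the limit on every array.

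All 10 genes had a higher mean signal in MyD88-ko than in WT cells (53.1% of all genes did), and none passed the test over all genes. The median log2 difference was 0.80, against 0.015 for all 19505 genes. With limma and Benjamini-Hochberg adjustment at 0.05, 0 of the 10 genes were called, where 0.190% of all genes were called in either direction and 0.00513% as higher. None was called at 0.1 either, where 0.431% of all genes were. At an unadjusted p under 0.05, 6 of the 10 were higher (Siglec1, Folr2, Cbr2, Vsig4, Adgre1 and Stab1), against 6.16% of all genes. The MyD88-ko arrays lay wholly above the WT arrays for 7 of the 10, against 14.8% of all genes. Signal was above the limit on every array for 5 of the 10 (Folr2, Lyve1, Mrc1, Cbr2 and Adgre1), against 15.3% of all genes. A log2 difference of at least 0.5 was found for 8 of the 10, against 3.61% of all genes; without WT replicate 1 these were 4 of the 10 and 2.81%. The genes were chosen with earlier results of these data known, so these shares are a description of the list. In RNA of a sorted population, fewer cells of a type and less RNA per cell cannot be told apart.

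**Figure D1:**
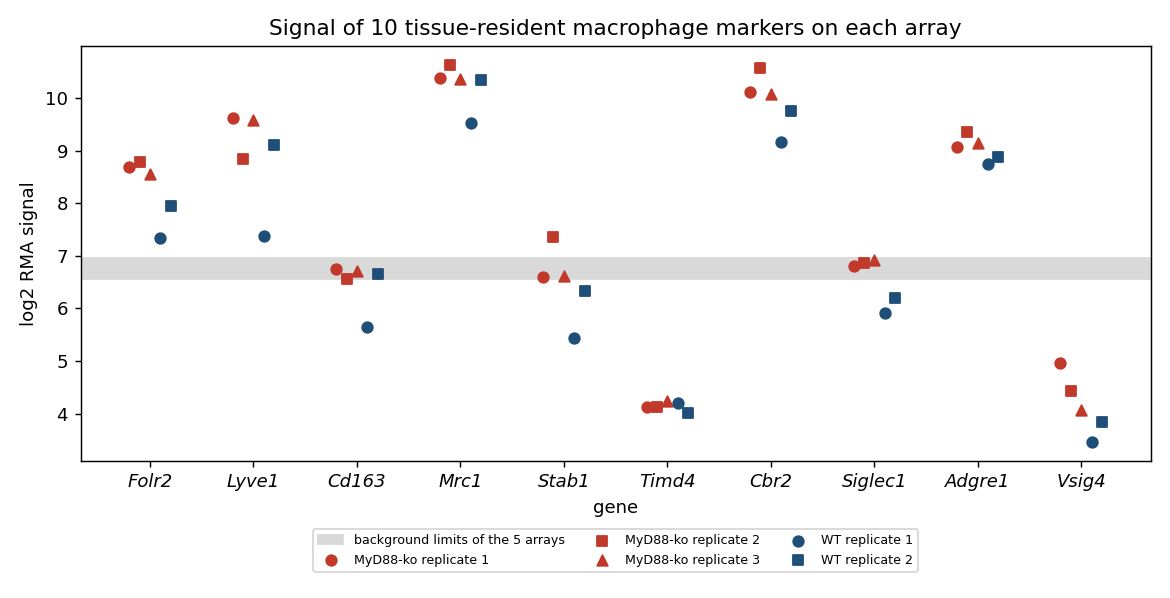
Log2 RMA signal (vertical axis) of the 10 genes (horizontal axis) on each array, with MyD88-ko in red, WT in blue and the replicate number as the marker shape. The grey band spans the background limits of the 5 arrays, 6.55 to 6.96. WT replicate 1 is the lowest point for 9 genes, and Timd4 and Vsig4 lie under the band throughout.

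Folr2 encodes folate receptor beta, which takes up folate at the cell surface. Its log2 signal was 8.69, 8.79 and 8.56 on the MyD88-ko arrays and 7.35 and 7.95 on the WT arrays. All 3 MyD88-ko arrays were higher than both WT arrays, and both groups were above background. The means of 8.68 ± 0.11 (SD, n = 3) and 7.65 ± 0.42 (SD, n = 2) gave a 2.05-fold difference (log2 1.03, SE 0.19; limma, adjusted p = 0.141). Lyve1 encodes a hyaluronan receptor that lymphatic endothelium also carries. It had the largest mean difference of the 10, with signals of 9.62, 8.85 and 9.59 in MyD88-ko and 7.38 and 9.12 in WT. The groups overlapped, because WT replicate 2 was higher than MyD88-ko replicate 2. Its log2 difference of 1.11 (SE 0.52), a 2.15-fold ratio, was smaller than the gap of 1.74 between the WT arrays and did not pass (limma, adjusted p = 0.456).

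Since endothelium shares Lyve1 and Stab1, its markers were read too. Of 13 such genes, 11 lay under the limit on every array, including Prox1 (means of 3.69 and 3.62 in MyD88-ko and WT) and Cdh5 (3.91 on every array), and the list had a median log2 difference of 0.040 (0 without MyD88-ko replicate 3 and 0.12 without MyD88-ko replicate 2). The log2 of its summed signal ranged from 9.43 to 9.75 in MyD88-ko and from 9.30 to 9.79 in WT. Only Pdpn and Eng were above the limit throughout. Pdpn averaged 8.47 in MyD88-ko and 8.48 in WT. Eng was higher in MyD88-ko without overlap, at 7.98 ± 0.16 (SD, n = 3) and 7.61 ± 0.18 (SD, n = 2; log2 0.36, SE 0.14, limma adjusted p = 0.374). Pecam1, under the limit on every array, had the lowest p of this list. It averaged 4.10 in MyD88-ko and 4.86 in WT without overlap (log2 -0.76, SE 0.27, limma adjusted p = 0.326).

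Mrc1 encodes the mannose receptor CD206. Signals were 10.38, 10.64 and 10.36 in MyD88-ko and 9.53 and 10.35 in WT. The groups did not overlap, yet WT replicate 2 and MyD88-ko replicate 3 were nearly level. The 1.43-fold difference (log2 0.52, SE 0.25) was smaller than the gap of 0.82 between the WT arrays and did not pass (limma, adjusted p = 0.463). Stab1 encodes stabilin-1, a scavenger receptor, and read 6.61, 7.35 and 6.62 in MyD88-ko against 5.44 and 6.34 in WT. It was above the limit on 2 of 3 MyD88-ko arrays and on neither WT array. The MyD88-ko values were all higher, with a log2 difference of 0.97 (SE 0.34; limma, adjusted p = 0.315), and no fold is given because the bound against background was under 1.

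Cd163, the scavenger receptor for haemoglobin bound to haptoglobin, read 6.75, 6.56 and 6.71 in MyD88-ko and 5.64 and 6.65 in WT. WT replicate 2 sat among the MyD88-ko values, and WT replicate 1 stood alone below them. The gene was above the limit on MyD88-ko replicate 1 alone, and its log2 difference of 0.53 (SE 0.28) did not pass (limma, adjusted p = 0.510). Haptoglobin itself (Hp), a monocyte and neutrophil transcript, moved the other way and was among the genes called lower (at least 3.93-fold; limma, adjusted p = 0.035).

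Siglec1 encodes sialoadhesin (CD169), a sialic acid-binding lectin. It had the lowest p of the 10 genes and the tightest MyD88-ko values, 6.81, 6.87 and 6.92, against 5.91 and 6.19 in WT. Every MyD88-ko array was above its background limit and both WT arrays were under theirs. MyD88-ko averaged 6.86 ± 0.054 (SD, n = 3) and WT 6.05 ± 0.20 (SD, n = 2), with a log2 difference of 0.82 (SE 0.12) with a 95% interval of 0.52 to 1.11 before adjustment for the number of genes (limma, adjusted p = 0.110). Both levels were too near background for a fold. The other sialic acid-binding lectins of the family were of mixed sign: of 8 measured, 3 had positive differences, the median was -0.032 (0.0092 after a further quantile normalization and 0.050 without MyD88-ko replicate 3) and none passed. Cd22 averaged 6.08 in MyD88-ko and 4.93 in WT and Siglece 4.66 and 5.65, both under the limit throughout.

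Cbr2, which encodes carbonyl reductase 2, is an enzyme gene among these surface receptors. It read 10.11, 10.57 and 10.07 in MyD88-ko and 9.16 and 9.76 in WT, with all MyD88-ko arrays above both WT arrays. Means of 10.25 ± 0.28 (SD, n = 3) and 9.46 ± 0.42 (SD, n = 2) gave a 1.73-fold difference (log2 0.79, SE 0.23; limma, adjusted p = 0.258). Adgre1 encodes F4/80, the antigen used in the sort, so the gate bears on its level. It had one of the smallest differences, with 9.08, 9.36 and 9.15 in MyD88-ko and 8.75 and 8.88 in WT. The groups were apart by a small margin and the ratio was 1.30-fold (log2 0.38, SE 0.13; limma, adjusted p = 0.300).

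Vsig4 and Timd4, receptors for complement C3 fragments and for phosphatidylserine on dying cells, were under the limit on all 5 arrays. Vsig4 read 4.97, 4.43 and 4.07 in MyD88-ko and 3.46 and 3.83 in WT, above 46.0% to 82.1% of the negative controls of its array. The MyD88-ko arrays were all higher, with a log2 difference of 0.84 (SE 0.27; limma, adjusted p = 0.295). Timd4 read 4.12, 4.13 and 4.23 in MyD88-ko and 4.21 and 4.003 in WT, with a difference of 0.058 (95% interval -0.22 to 0.33; limma, adjusted p = 0.857). Neither level could be told from background. The same held on every array for Clec4f of liver macrophages (means of 3.26 and 3.11), Marco (5.32 and 4.91), Cd5l (4.99 and 4.43) and Gata6 of peritoneal macrophages (4.41 and 4.23).

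**Figure D2:**
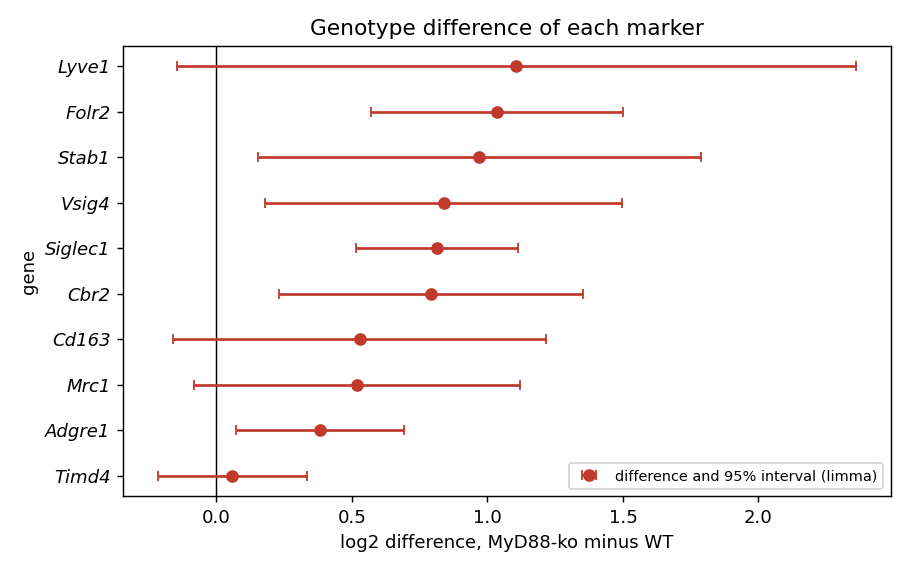
Log2 difference, MyD88-ko minus WT (horizontal axis), for each gene (vertical axis), as the limma estimate with its 95% interval before adjustment for the number of genes. The 6 intervals that exclude 0 belong to Siglec1, Folr2, Cbr2, Vsig4, Adgre1 and Stab1, and the interval of Lyve1 is the widest.

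The size of the differences depended on WT replicate 1. That array was the lowest of the 5 for 9 of the 10 genes, against 25.1% of all genes, and WT replicate 2 was higher than it by a median of 0.59. Without WT replicate 1 the median difference of the 10 genes was 0.40, and without WT replicate 2 it was 1.03. Leaving out WT replicate 1 reduced Lyve1 to 0.24, Mrc1 to 0.11 and Cd163 to 0.025, and left 2 genes at an unadjusted p under 0.05, against 4.91% of all genes. Those genes were Siglec1 (0.67) and Folr2 (0.74). Without MyD88-ko replicate 2, 3 genes were higher at that level, against 3.92% of all genes. For 4 of the 10 (Lyve1, Cd163, Mrc1 and Timd4) the gap between the WT arrays was larger than the genotype difference, a share to read beside 56.4% of all genes.

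**Figure D3:**
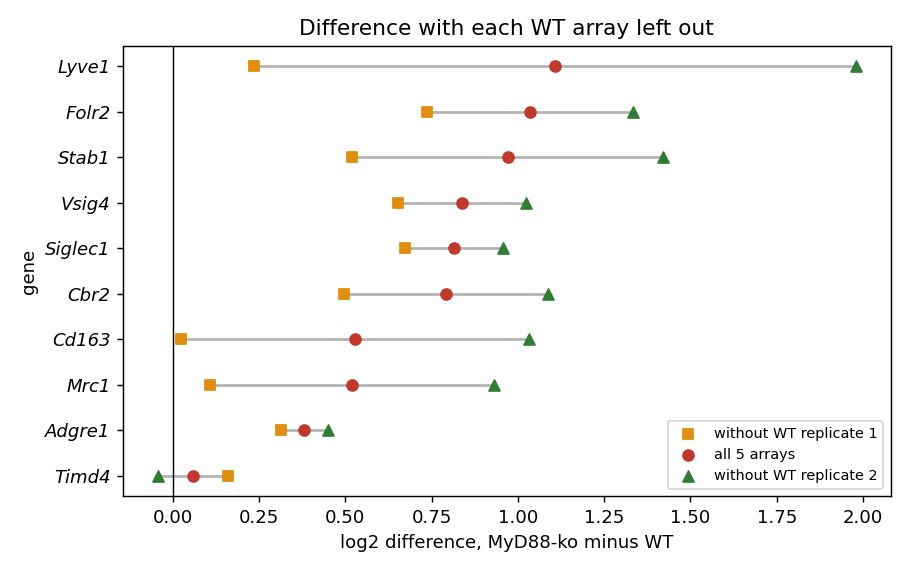
Log2 difference, MyD88-ko minus WT (horizontal axis), for each gene (vertical axis) with all 5 arrays (circles), without WT replicate 1 (squares) and without WT replicate 2 (triangles). Folr2, Cbr2 and Adgre1 are at 0.74, 0.50 and 0.31 without WT replicate 1, and Cd163 and Mrc1 at 0.025 and 0.11. Vsig4 and Timd4 lay under the background limit throughout, and Siglec1, Stab1 and Cd163 on both WT arrays.

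Further genes typical of resident macrophages showed the same direction. Of 25 measured genes of that list, 23 had positive differences (53.1% of all genes did), with a median of 0.56. Signal was under the limit on every array for 9 of the 25. None of the 25 passed, and 12 were higher and 2 lower at an unadjusted p under 0.05 (6.16% and 6.39% of all genes). The lowest p-values belonged to Selenop, Cd209f, Cd209g and Slco2b1. Selenop, the selenoprotein P gene, read 11.29, 11.13 and 11.01 in MyD88-ko and 10.30 and 10.56 in WT (log2 0.72, SE 0.14; limma, adjusted p = 0.146). Cd209f, a C-type lectin of the DC-SIGN family, read 7.43, 6.94 and 7.67 against 5.08 and 6.10, which was at least 1.33-fold higher (limma, adjusted p = 0.148). Both genes had groups that did not overlap.

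Cd209g and the transporter gene Slco2b1 were under the limit on all arrays, with differences of 1.48 and 1.17. Among the list's growth factors Gas6, a ligand that bridges dying cells to MERTK, read 8.95, 9.66 and 9.11 against 6.85 and 8.36, and Igf1 averaged 10.31 and 8.84. Neither passed (limma, adjusted p of 0.238 and 0.297). The 2 genes lower in MyD88-ko were Cd209a (-1.15), which dendritic cells also express, and Hpgd (-1.38), an enzyme that degrades prostaglandins and whose signal was under the limit on all arrays. WT replicate 1 was the lowest array for 19 of the 25 genes, against 25.1% of all genes. Without that array the median was 0.28 with 18 positive.

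Transcription factor genes of resident macrophages were of mixed sign. Of 13 measured, 6 had positive differences, the median was -0.014 (0.010 after a further quantile normalization, 0.045 without MyD88-ko replicate 2 and 0.068 without WT replicate 2) and none passed. Spi1 read between 11.60 and 11.69 on all arrays and Maf averaged 8.61 and 8.45. Spic, needed for red pulp macrophages of the spleen, was under the limit on all arrays and lower in MyD88-ko, at 3.49 ± 0.52 (SD, n = 3) and 5.16 ± 0.59 (SD, n = 2; limma, adjusted p = 0.172). Id1 (5.56 and 6.28) and Runx3 (7.63 and 8.22) were also lower without passing. Nfatc2 was higher (6.85 and 6.40) without passing, and was above the limit on the 3 MyD88-ko arrays and on neither WT array. At an unadjusted p under 0.05, 1 of the 13 genes was higher and 4 were lower (6.16% and 6.39% of all genes). Of 7 splenic red pulp markers, 5 had positive differences with a median of 0.25 (0.00066 without WT replicate 1 and 0.68 without WT replicate 2). Spic was also counted among the transcription factors and Cd5l among the further resident genes. Treml4 was at least 1.47-fold lower (limma, adjusted p = 0.085) and was above the limit on WT replicate 1 alone. The list of other uptake and scavenger receptors was mixed as well, with 9 of 13 genes positive and a median of 0.17. At an unadjusted p under 0.05, 0 of its genes were higher and 3 lower (6.16% and 6.39% of all genes). The 3 were Olr1, Msr1 (-0.36) and Havcr2 (-0.80). The list also held Hmox1 (0.25) and Slc40a1 (0.82), which are not receptors and were counted among the red pulp markers too. The median was 0.068 without WT replicate 1 and 0.067 without MyD88-ko replicate 3 and with the replicate number as a block. With a Y-linked covariate it was -0.047. Olr1, an oxidised lipoprotein receptor, was the 1 gene of the list that passed (0.190% of all genes did). It was at least 1.28-fold lower (limma, adjusted p = 0.041) and was above the limit on WT replicate 1 alone.

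General macrophage genes had a median near that of all genes, with single genes apart in both directions. The 11 measured core genes had a median of 0.012, with 6 positive and 5 negative; the sign of this median turned with 3 other scalings, down to -0.034 with cyclic loess, and the median was 0.087 without WT replicate 1 and -0.044 without WT replicate 2. At an unadjusted p under 0.05, 3 of the 11 were higher and 3 lower (6.16% and 6.39% of all genes). The groups did not overlap for 5 genes higher and 4 lower in MyD88-ko (14.8% and 12.9% of all genes). C1qa, C1qb and C1qc were at 0.68, 0.56 and 0.94. Ptprc, the CD45 gene, was at -0.87, Cd14 at -0.49 and Fcgr1 at -0.47, and none of the core genes passed. The log2 of the summed signal of the core genes ranged from 13.76 to 13.80 in MyD88-ko and from 13.69 to 13.76 in WT. For the 10 markers it ranged from 12.13 to 12.31 and from 11.14 to 11.87.

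Monocyte and neutrophil genes were lower on the MyD88-ko arrays on which the resident markers were higher. Of 8 measured classical monocyte genes, 7 had negative differences with a median of -1.65, and Hp passed. The 1 positive gene, F13a1 (0.14), was also counted among the further resident genes. Ly6c2 read 7.18, 7.40 and 8.47 in MyD88-ko against 9.96 and 9.03 in WT, and Plac8 8.76, 8.48 and 9.29 against 11.03 and 10.06. WT replicate 1, lowest for most resident markers, was the highest array for both, and for 4 of the 8 genes in all. Vcan (8.81 against 9.07 in WT replicate 2) and Hp (8.52 against 8.69) were not among them. Of the 12 neutrophil genes, 3 were highest on WT replicate 1. The log2 of the summed monocyte signal ranged from 11.51 to 12.17 in MyD88-ko and from 12.61 to 12.82 in WT, with 0 of the 8 genes under the limit on every array. The 12 measured neutrophil genes had a median of -1.99 and 5 passed as lower. Of all genes, 0.190% passed in either direction and 0.00513% as higher. Their summed signal ranged from 8.45 to 8.90 and from 11.26 to 11.77, while the granule genes Camp, Ngp, Ltf, Mpo and Elane were under the limit on every array. The part of these cells in the differences of the resident markers was not tested.

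**Figure D4:**
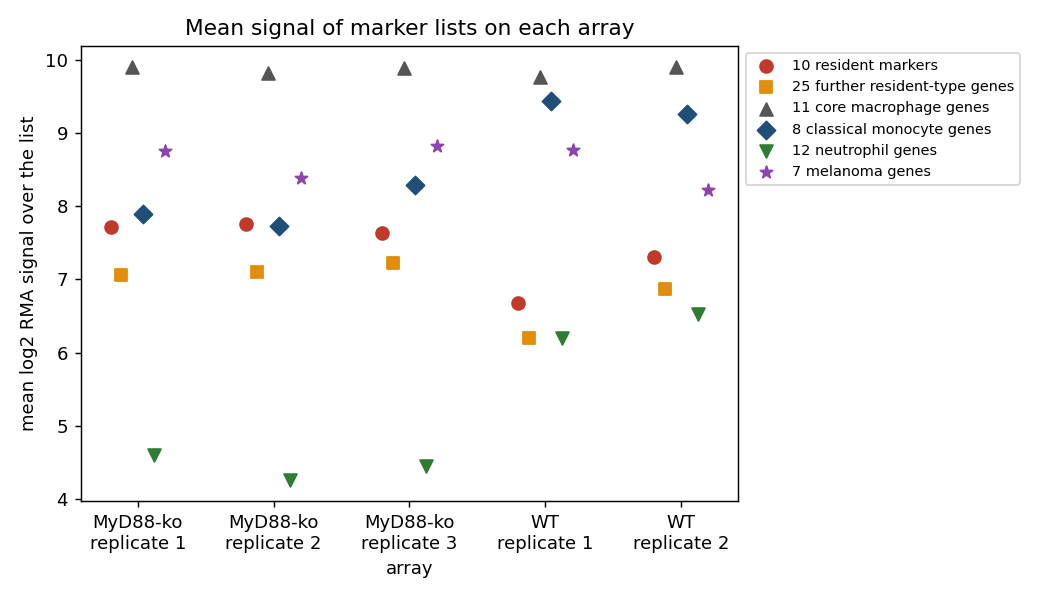
Mean log2 RMA signal (vertical axis) over 6 marker lists on each array (horizontal axis), 1 point per list and array. The 10 resident markers average 7.63 to 7.76 on the MyD88-ko arrays, 6.68 on WT replicate 1 and 7.31 on WT replicate 2, and the monocyte list is higher on both WT arrays than on every MyD88-ko array.

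Other measures that moved with genotype were set beside the result. The background limit was higher on both WT arrays than on the MyD88-ko arrays and its part in the result was not tested. The mean of 3 Y-linked genes was 5.51, 5.51 and 4.59 on the MyD88-ko arrays and 5.89 and 6.03 on the WT arrays. Of these, Kdm5d and Uty were under the limit on every array. The part of the sex of the mice, which the labels do not give by array, was not tested. With the Y-linked mean as a covariate the median difference of the 10 genes was 0.88, and 9 were positive.

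The genes most like Siglec1 over the 5 arrays, by the root mean square difference of log2 profiles, each gene centred on its own mean over the 5 arrays, were Ak3 (0.035), Mr1 (0.065), Gpnmb (0.072) and Lclat1 (0.080). Ak3, an adenylate kinase gene, read 7.48, 7.59 and 7.61 in MyD88-ko and 6.60 and 6.97 in WT. Gpnmb, a glycoprotein gene abundant in lipid-laden macrophages, read 10.91, 10.80 and 10.96 against 10.01 and 10.34. These were picked for their likeness, so their differences are a description.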

How the data were processed

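The deposited values were log2 signals per probe set, which per the submitters' processing notes came from RMA (Affymetrix Expression Console 1.1). RMA corrects background, normalizes arrays by quantiles and summarizes probes. No genome build is named in these sources. Of 28846 rows, 19572 were paired with 1 gene symbol each in the platform annotation and 9274 with none. No symbol changed against RefSeq (GRCm38.p6). For 55 genes with several probe sets the one with the highest mean was used, which left 19505 genes.

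All genes entered 1 fit with limma 3.58.1 under R 4.3.3 (lmFit, then eBayes, genotype only, 3 residual degrees of freedom), with Benjamini-Hochberg adjustment over all genes at 0.05 and no filter on dim genes. Folds are 2 to the power of the log2 difference. Where 1 group was under the background limit on all its arrays, a fold is "at least": each array of that group entered at its signal or its limit, whichever was higher, and the fold was taken between the group means. The fit was tested on simulated data. There is no read depth for arrays, and their number limits the precision. The alternatives covered normalization, a filter, moderation, weights, a covariate, the replicate number and leaving out arrays. The named genes were the 10 markers, up to 4 genes of lowest p per list, and those nearest Siglec1 in profile. Others (among them Prox1, Cdh5, Eng, Pdpn, Gas6, Igf1, Cd209a, Hpgd, Maf, Spi1, Ly6c2, Plac8 and Clec4f) were named with their values in view. The markers and the 15 lists were chosen with earlier results of these data known.

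Beside the lists of the report, conventional dendritic cell genes (8 measured) had a median log2 difference of -0.19, eosinophil genes (5) -0.099, fibroblast genes (6) -0.23, melanoma genes (7) 0.13 and lymphocyte genes (8) -0.093, and none of their genes passed. With 1 array left out these medians lay between -0.30 and -0.10, -0.18 and -0.033, -0.39 and -0.039, -0.067 (without WT replicate 2) and 0.35 (without WT replicate 1), and -0.18 and -0.056 in turn; the melanoma median was -0.13 with the Y-linked covariate.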

Additional observations from a re-analysis of the deposited data

How the results depend on the processing

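None of the 10 genes was called at 0.05 under any of the 15 alternative fits, though the filter kept only 8 of them, without Timd4 and Vsig4. In the main fit none was called at an adjusted p under 0.1 (84 genes called in all). Over the alternative fits the limma adjusted p-values of the 10 genes were between 0.063 and 0.974. Siglec1, Folr2, Stab1 and Cbr2 were under 0.1 in some of these fits. The 148 differences of single genes under these fits kept their sign except those of Timd4, which was -0.048 with the Y-linked mean as a covariate and lay between -0.043 (without WT replicate 2) and 0.16 with 1 array left out. The median difference of the 10 genes lay between 0.40 and 1.03 with 1 array left out in turn and between 0.78 and 0.88 otherwise. The count of genes higher at an unadjusted p under 0.05 lay between 2 and 8 with 1 array left out, where 3.92% to 10.2% of all genes were. The count with a difference of at least 0.5 lay between 4 (without WT replicate 1) and 8 with 1 array left out and between 7 and 8 otherwise. These counts and that of positive differences were added after the data were seen. The count of all genes called, 37, was 60 with equal array medians, 63 with cyclic loess, 15 with array weights, 0 with the Y-linked covariate and between 0 and 1 with 1 array left out. Each of the last 2 kinds of fit has 2 residual degrees of freedom. With 1 WT array left out, the spread of the lone array is taken from the MyD88-ko arrays. With the replicate block 70 genes were called, and the median difference of the 10 genes was 0.83. That block fits MyD88-ko replicate 3 exactly, so its differences equal those without that array, and it leaves 1 residual degree of freedom. Replicate numbers were not taken as a pairing, since the labels state no shared batch. Deviations of same-numbered arrays correlated at 0.059 and 0.10, and those of crossed arrays at -0.059 and -0.10. With only 2 WT arrays the crossed values mirror the others by construction, so these correlations cannot decide on a pairing. With the 99th percentile of the negative controls as the limit, 1 of the 10 genes was above it on every array, against 5 with the 95th and 5 with the 90th.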
